A study of Mus musculus with 12 samples.

Results

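The histone genes of C2C12 cells, an established mouse myoblast line, were taken as every row of the deposited count table whose name starts with Hist1h to Hist4h, H2af, H3f or H1f and whose counts summed to at least 10 over the 12 libraries. The names of 52 of the 21232 genes in the table met the rule and 39 reached the total, namely 30 genes with replication-dependent names and 9 variants. Of the 13 that did not, 9 had no count. The gene just inside the limit was Hist3h2ba with 10 counts and the one just outside was Hist1h2af with 8. The replication-dependent genes comprised 5 linker H1, 7 H2A, 11 H2B, 5 H3 and 2 H4 genes. H3f3b and Hist4h4 were not analysed here.

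The study sequenced RNA from 4 groups of 3 libraries, named A, B and C. TNF cells had been kept in differentiation medium (2% horse serum) for 48 h with 10 ng/ml of the inflammatory cytokine TNF, Fbxl2 siRNA cells for 48 h after silencing of Fbxl2, an F-box protein of SCF ubiquitin ligases, and control cells for 48 h without TNF; proliferation cells were myoblasts in growth medium (10% fetal bovine serum) at 0 h. All 4 groups came from C2C12 cells that the labels give as strain C57BL/6. The series concerns how TNF acts on muscle differentiation through Fbxl2; whether the cells without Fbxl2 siRNA were given a non-targeting siRNA is not in the labels. No label names separate cultures behind libraries A, B and C, so the p-values cover the scatter of these 3 libraries a group, which may be technical.

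Histones package DNA into nucleosomes, made of a core of H2A, H2B, H3 and H4 and closed by linker H1. Replication-dependent histone genes lie in clusters, are transcribed mainly in S phase, and give mRNAs that end in a stem-loop bound by the protein Slbp in place of a poly(A) tail; some of them can also give polyadenylated mRNAs in cells that leave the cycle. Variant histones are encoded by single genes with polyadenylated mRNAs and can be made and placed into chromatin outside S phase, as happens when myoblasts stop dividing and fuse into myotubes.

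The members are divided here by the length of their annotated 3′ ends, and the stem-loop, found on both sides of that division, is shown first. In the GENCODE M21 transcripts (GRCm38), a motif of 16 bases (GG, any 2 bases, CTT, any base, T, any base, A, any 2 bases, GCC) was searched on the transcript strand within 100 bases after the stop codon. It was found in 20 of the 29 protein-coding replication-dependent members and in 1 of the 9 variants, H2afx, against 51 of 21682 protein-coding genes (0.235%), of which 5 were not histone genes. The core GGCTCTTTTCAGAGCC was shared by 14 members, the core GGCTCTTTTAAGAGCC by 3, and 4 members each had a core of their own. The loops of 8 members described below are printed 5′ to 3′, with the 16 bases that match the motif in capitals and 5 bases on each side.
Hist1h1c, chr13:23739507-23739532, plus strand: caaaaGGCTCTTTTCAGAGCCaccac
Hist1h1d, chr13:23555782-23555807, plus strand: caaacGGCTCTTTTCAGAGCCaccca
Hist1h1e, chr13:23621777-23621802, minus strand: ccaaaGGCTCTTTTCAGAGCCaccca
Hist3h2a, chr11:58955167-58955192, plus strand: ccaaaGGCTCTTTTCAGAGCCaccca
Hist1h2bj, chr13:22043633-22043658, plus strand: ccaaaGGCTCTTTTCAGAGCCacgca
Hist1h2bk, chr13:22036295-22036320, plus strand: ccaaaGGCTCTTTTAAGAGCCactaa
Hist2h4, chr3:96262934-96262959, minus strand: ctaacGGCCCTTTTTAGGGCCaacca
H2afx, chr9:44335235-44335260, plus strand: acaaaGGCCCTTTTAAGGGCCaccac
Of the 29 protein-coding replication-dependent members, 18 had an annotated transcript that ended under 200 bases past the stop codon and are called short-ended here; 12 of these held the motif, and the 6 others ended at most 51 bases past the stop codon. In 11 extended members, the annotated transcript ran on for 216 to 4934 bases, and 8 of them held the stem-loop upstream of that later end. A poly(A) signal (AATAAA or ATTAAA) was sought in the last 60 bases of the annotated end. It stood in 6 of the 11 extended, 2 of the 18 short-ended and 8 of the 9 variant members. Extended therefore names the annotated length and not a polyadenylated class. Hist1h1c, Hist3h2a, Hist1h2bc and Hist2h2be, which held most of the replication-dependent reads, were all extended. In position, 22 of the 29 lay in the Hist1 cluster at chr13:21722044-23764406, and the others on chromosomes 3 and 11. Hist1h2al is annotated as a processed pseudogene with no 3′ end of its own.

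The promoters of 33 members (25 replication-dependent, 8 variant) were matched in RefSeq (GRCm38.p6), from 250 bases before to 50 bases after the gene start. CCAAT, searched on both strands, stood in 25 of 25 replication-dependent promoters and 5 of 8 variant promoters, against 37.9% of 27025 promoters. TATAAA stood in 17 of 25 and in 0 of 8, against 14.2%. AAACACA, the H1 box of linker histone promoters, stood in 4 of 5 replication-dependent H1 promoters, 6 of all 25 and 1 of 8 variants, against 7.14%. A pair of linker H1 genes whose RNAs moved in opposite directions, and the variant with the largest fall on differentiation, are printed 5′ to 3′ with the 3 motifs in capitals, on either strand.
Hist1h1c, chr13:23738557-23738856, plus strand: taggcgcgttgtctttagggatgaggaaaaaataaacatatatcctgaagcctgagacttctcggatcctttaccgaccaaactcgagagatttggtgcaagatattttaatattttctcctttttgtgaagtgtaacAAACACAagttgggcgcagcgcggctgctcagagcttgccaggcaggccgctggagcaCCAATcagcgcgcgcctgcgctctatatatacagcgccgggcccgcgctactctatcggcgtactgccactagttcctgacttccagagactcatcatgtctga
Hist1h1d, chr13:23554782-23555081, plus strand: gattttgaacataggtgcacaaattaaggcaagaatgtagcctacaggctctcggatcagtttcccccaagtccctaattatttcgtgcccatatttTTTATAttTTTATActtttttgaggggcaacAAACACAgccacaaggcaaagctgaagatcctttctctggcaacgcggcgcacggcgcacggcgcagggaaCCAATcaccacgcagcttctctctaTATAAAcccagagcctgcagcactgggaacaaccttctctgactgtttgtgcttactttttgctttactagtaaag
H2afz, chr3:137864237-137864536, plus strand: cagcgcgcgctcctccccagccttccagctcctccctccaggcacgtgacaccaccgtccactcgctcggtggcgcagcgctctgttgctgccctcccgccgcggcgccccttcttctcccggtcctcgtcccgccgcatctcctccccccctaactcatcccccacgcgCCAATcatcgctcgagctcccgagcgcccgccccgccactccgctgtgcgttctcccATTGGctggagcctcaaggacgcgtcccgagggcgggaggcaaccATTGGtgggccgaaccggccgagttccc
Hist1h1c and Hist1h1d both held AAACACA and CCAAT. H2afz held CCAAT and its reverse complement but neither of the other motifs. A match describes these letters and not a bound factor.

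Library totals ran from 26416978 to 32917763 counts, and a floor of 3 counts in a library was worth 0.0899 to 0.113 CPM (counts per 1000000, on totals scaled by TMM factors). Counting error is all that such floors cover. Fbxl2, checked first, had 20.6 to 23.6 CPM in Fbxl2 siRNA libraries against 31.8 to 34.4 CPM in control libraries (log2 fold change -0.57 ± 0.06, SE; edgeR adjusted p = 1.67e-07). Of 10 skeletal markers 9 were in the table, with summed levels of 1780 to 1820 CPM in TNF, 2720 to 3060 CPM in Fbxl2 siRNA, 3880 to 4220 CPM in control and 2100 to 2250 CPM in proliferation libraries. All 8 fibroblast markers were listed and summed to 4430 to 4680, 9050 to 9690, 6980 to 7070 and 3040 to 3740 CPM in the same order of groups, with Thy1 at 0 in TNF, control and proliferation and Tcf21 at 0 in TNF, Fbxl2 siRNA and proliferation. The 7 smooth muscle markers summed to 4120 to 4260, 1940 to 2070, 3520 to 3700 and 755 to 758 CPM in that order, with none at 0. Macrophage (6 of 6 listed, Adgre1 at 0 in all groups), endothelial (5 of 5, none at 0) and adipocyte (5 of 5, Cidec at 0 in all groups) sums stayed at or under 3.85, 2.84 and 13.7 CPM. The part of these lists in the histone results was not tested. In bulk RNA, fewer cells that express a gene and less RNA per cell cannot be told apart.

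All 39 members together took 0.136% ± 0.00265 of the counts in TNF, 0.146% ± 0.00529 in Fbxl2 siRNA, 0.136% ± 0.00173 in control and 0.211% ± 0.00709 in proliferation libraries (SD, n = 3 each). The genes H3f3a, H2afz and H1f0 alone supplied 80.2%, 81.2%, 79.5% and 84.1% of the histone counts of these groups. Per kilobase of exon, H2afz had 293, 323, 182 and 704 CPM in TNF, Fbxl2 siRNA, control and proliferation cells and stood above every other member except in control cells, where H3f3a had 215 CPM per kilobase. The 18 short-ended genes supplied 0.0429% to 0.349% of the histone counts of a library. The libraries were made with an mRNA kit, and the labels do not state whether it kept RNA without a poly(A) tail. Low capture and low level of these genes can therefore not be told apart. All these shares describe the RNA that was sequenced. The edgeR fit covered 12736 genes after the filter on low counts, among them 21 members, the 9 variants and 12 replication-dependent genes. The 18 members that were not tested were all replication-dependent and had 10 to 66 counts in total, against 102 to 213432 for those tested.

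H2afz (chr3:137864487-137866922, plus strand, GRCm38) encodes H2A.Z, an H2A variant found at promoters and enhancers. H2afz had 320, 317 and 302 CPM in TNF libraries, 329, 378 and 329 CPM in Fbxl2 siRNA libraries, 185, 196 and 204 CPM in control libraries and 697, 835 and 726 CPM in proliferation libraries. Control libraries were the lowest and proliferation libraries the highest, with both treated groups between them and no overlap among these 3 levels. H2afv encodes another, nearly identical H2A.Z protein, and had 56, 58.1 and 56.9 CPM in TNF, 60.9, 62.7 and 66.2 CPM in Fbxl2 siRNA, 56.9, 58.1 and 57.6 CPM in control, and 75, 77 and 73.3 CPM in proliferation libraries. TNF and control overlapped and the span over all groups was narrow. The ratio of H2afz to H2afv counts was 5.49 ± 0.208 in TNF, 5.47 ± 0.528 in Fbxl2 siRNA, 3.39 ± 0.136 in control and 10 ± 0.76 in proliferation libraries (SD, n = 3 each).

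H2afx encodes H2A.X, the variant phosphorylated around DNA double-strand breaks, and its mRNA is known in both a stem-loop and a polyadenylated form. It had 28.5, 29.2 and 30.4 CPM in TNF, 32.8, 34 and 32.7 CPM in Fbxl2 siRNA, 17.7, 19.7 and 18.9 CPM in control, and 44.6, 47.5 and 44.5 CPM in proliferation libraries. None of the 4 groups overlapped. H2afy, the gene of macroH2A1, which marks silent chromatin, had 70, 75 and 71.9 CPM in TNF, 72.2, 77.9 and 76.5 CPM in Fbxl2 siRNA, 62.5, 64.6 and 66.2 CPM in control and 92.6, 94.4 and 100 CPM in proliferation libraries. Both treated groups overlapped each other and lay above control. For H2afy2, its relative macroH2A2, the levels were 20, 23.2 and 22.2 CPM in TNF, 17, 17.9 and 18.7 CPM in Fbxl2 siRNA, 19.5, 19.8 and 20.7 CPM in control, and 21.5, 23.6 and 23.7 CPM in proliferation libraries. Fbxl2 siRNA was the lowest group without overlap, and TNF overlapped both control and proliferation. H2afj, whose protein H2A.J is known to build up in senescent human fibroblasts, had 10.1, 10.1 and 9.28 CPM in TNF, 7.85, 7.45 and 7.26 CPM in Fbxl2 siRNA, 9.35, 9.51 and 8.56 CPM in control and 7.76, 6.89 and 7.04 CPM in proliferation libraries. H2afj was thus high in TNF and control and low in the other pair of groups, which overlapped.

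H1f0 (chr15:79028450-79030504, plus strand) encodes the linker histone H1.0, known to accumulate in resting and differentiated cells. It had 181, 180 and 176 CPM in TNF, 288, 318 and 282 CPM in Fbxl2 siRNA, 195, 187 and 191 CPM in control, and 459, 391 and 393 CPM in proliferation libraries. Here TNF stood just under control and Fbxl2 siRNA well above both. The linker variant H1fx had 7.2, 7.91 and 8.22 CPM in TNF, 8.49, 9.16 and 7.79 CPM in Fbxl2 siRNA, 6.29, 6.41 and 6.11 CPM in control and 12.3, 10 and 10.3 CPM in proliferation libraries, with control the lowest and the treated groups overlapping. H3f3a (chr1:180800832-180813943, minus strand) encodes H3.3, the H3 placed into chromatin outside replication, and had 613, 630 and 611 CPM in TNF, 528, 559 and 549 CPM in Fbxl2 siRNA, 680, 668 and 675 CPM in control and 588, 645 and 598 CPM in proliferation libraries. Control libraries were the highest and Fbxl2 siRNA libraries the lowest, with proliferation overlapping TNF. How strand was used in counting is not given, and reads of H3f3a and of the antisense gene H3f3aos cannot be told apart; the same holds for H1f0, H1fx, H2afj, H2afx, H2afy and H2afy2, which each overlap an annotated gene on the other strand.

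**Figure D1:**
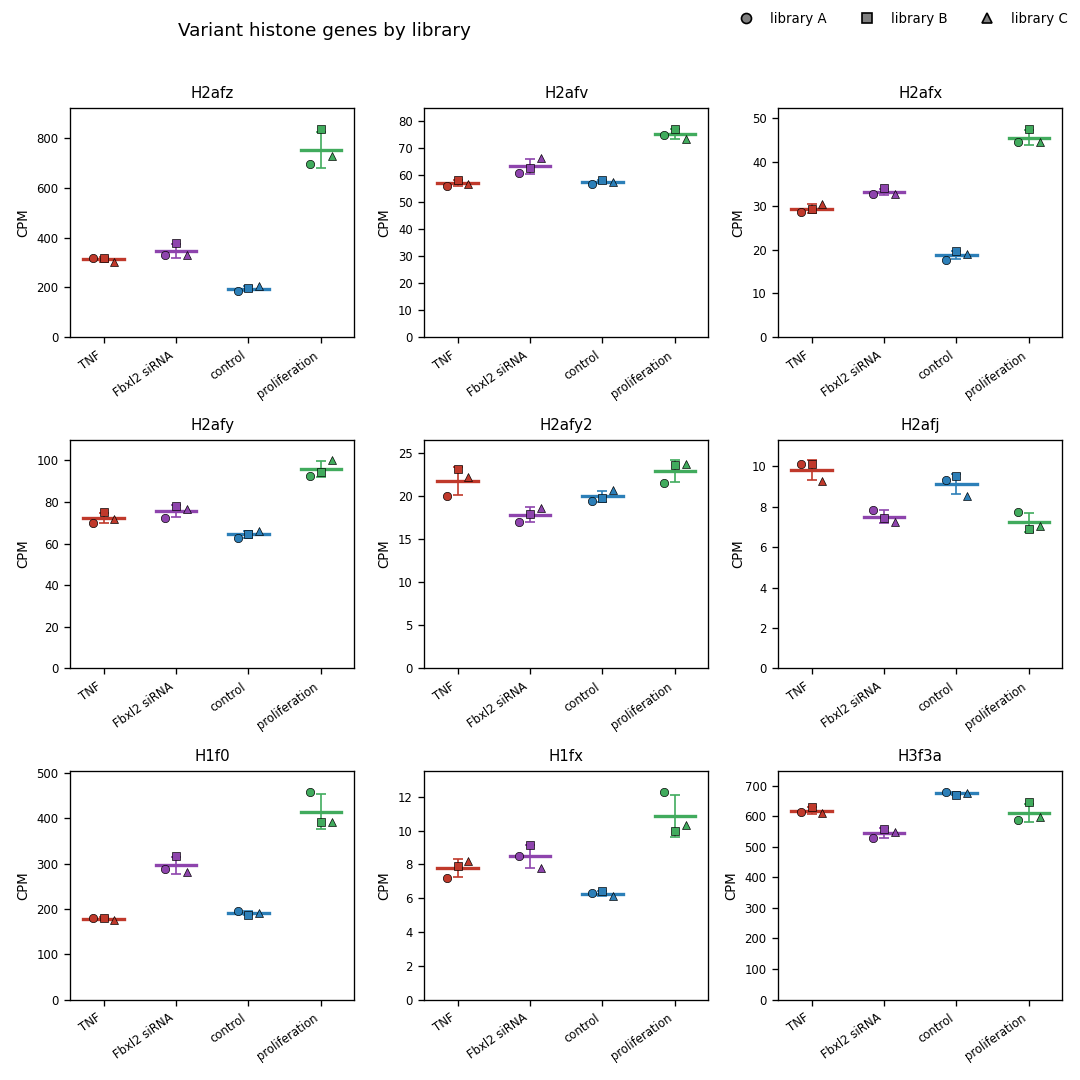
Levels of the 9 variant histone genes in CPM (vertical axis, from 0) in TNF, Fbxl2 siRNA, control and proliferation cells; each point is a library, its shape the library letter, with a bar at the mean and whiskers of 1 SD. H2afz, H2afx, H2afy and H1fx were lowest in control cells, whereas H3f3a was highest there.

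Among the replication-dependent genes, the extended Hist1h1c, a linker H1 of the Hist1 cluster, had the highest level. It had 45.8, 41.8 and 43.7 CPM in TNF, 38.5, 33.1 and 37.2 CPM in Fbxl2 siRNA, 57.4, 59.3 and 59.3 CPM in control and 50.7, 43.9 and 45.2 CPM in proliferation libraries. Every control library lay above every other library. Hist3h2a, a core H2A gene on chromosome 11, had 8.89, 10.4 and 8.18 CPM in TNF, 9.55, 9.02 and 10.6 CPM in Fbxl2 siRNA, 11.3, 13.3 and 12.5 CPM in control, and 7.83, 6.51 and 6.58 CPM in proliferation libraries. Control was again the highest, and proliferation the lowest without overlap. Reads of Hist3h2a may include those of Trim17, annotated over it on the same strand.

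The core H2B gene Hist1h2bc had 19.5, 19.1 and 17.3 CPM in TNF, 16.6, 13.7 and 15 CPM in Fbxl2 siRNA, 19.5, 18.8 and 20.3 CPM in control and 13.4, 14 and 13.6 CPM in proliferation libraries. TNF overlapped control, and Fbxl2 siRNA overlapped proliferation. Hist2h2be, an H2B gene on chromosome 3, had 0.864, 0.956 and 0.779 CPM in TNF, 1.14, 0.919 and 0.908 CPM in Fbxl2 siRNA, 2.04, 1.29 and 1.44 CPM in control and 0.987, 1.08 and 0.953 CPM in proliferation libraries. Library A of control was well above the other 2, and all 3 control libraries lay above the rest. Hist1h2al, the pseudogene of the H2A family, had 2.33, 1.99 and 1.28 CPM in TNF, 0.817, 0.749 and 1.36 CPM in Fbxl2 siRNA, 2.85, 2.89 and 2.45 CPM in control and 0.724, 0.409 and 0.789 CPM in proliferation libraries. Control libraries were the highest without overlap and TNF library C was near Fbxl2 siRNA library C. Its reads cannot be told apart from those of near-identical H2A genes or of Gm44341, annotated on the opposite strand. Hist2h4, an H4 gene, had 11, 14 and 10 counts in TNF, 6, 8 and 4 in Fbxl2 siRNA, 20, 16 and 10 in control and 11, 1 and 14 in proliferation libraries. Its few counts in the last group spread widely.

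Summed over the 11 extended genes, the level was 73.6 ± 2.06 CPM in TNF, 63.8 ± 4.87 in Fbxl2 siRNA, 93.3 ± 1.56 in control and 71.4 ± 5.41 in proliferation libraries (SD, n = 3 each). Hist1h1c made up the larger part of each sum. The 18 short-ended genes ran otherwise: they summed to 0.927, 1.43 and 1.52 CPM in TNF, 3.76, 1.46 and 3.21 CPM in Fbxl2 siRNA, 0.569, 1.53 and 1.29 CPM in control and 7.27, 2.57 and 7.17 CPM in proliferation libraries. Proliferation had the highest mean but its library B lay within the Fbxl2 siRNA range, TNF overlapped control, and library B stood low within both proliferation and Fbxl2 siRNA. The 38 listed DNA replication genes summed to 3310, 3790 and 3600 CPM in proliferation libraries A, B and C. In Fbxl2 siRNA libraries A, B and C they summed to 2120, 2190 and 2150 CPM, and library B was the highest in both groups. H2afz was also highest in library B of both groups, and any link of these levels to the low short-ended sums was not tested. Total counts were 30194600, 26974009 and 30435066 in the proliferation libraries and 28168389, 29464323 and 26416978 in the Fbxl2 siRNA libraries, and the part of depth in the low sums was not tested. Without library B, the short-ended sum averaged 3.49 CPM in Fbxl2 siRNA cells, against 2.81 ± 1.2 (SD, n = 3) with it. The proliferation mean was 7.22 CPM without library B and 5.67 ± 2.68 (SD, n = 3) with it. In counts, the 3 libraries of each group held 111 reads of these genes in TNF, 234 in Fbxl2 siRNA, 99 in control and 508 in proliferation cells. Proliferation had the highest mean of the 4 groups for 16 of the 18 short-ended genes, for 5 of the 11 extended genes and for 7 of the 9 variants.

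**Figure D2:**
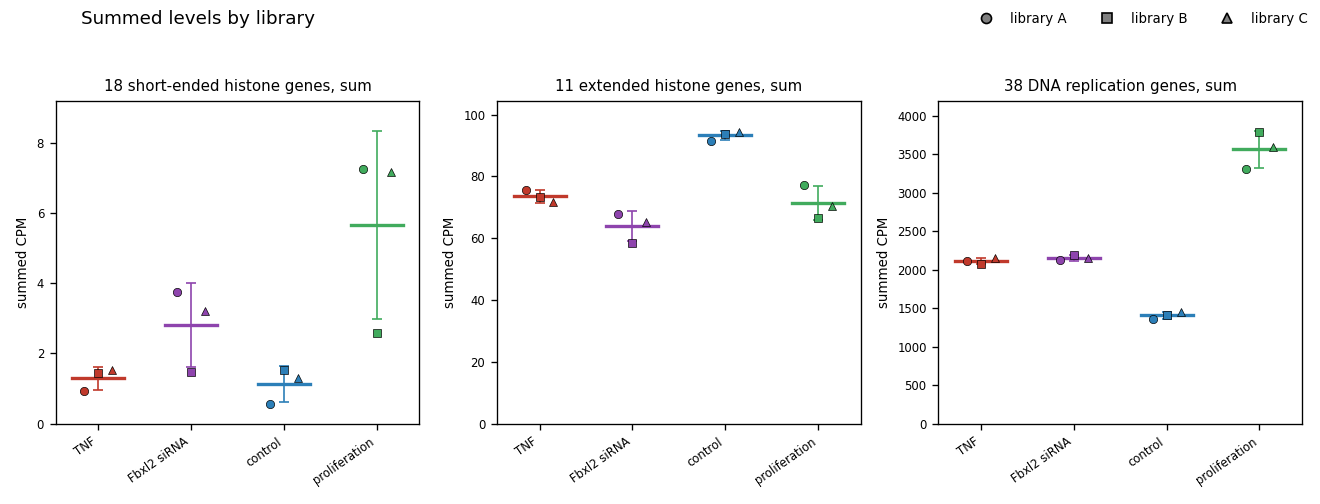
Summed CPM (vertical axes, from 0) of the 18 short-ended and 11 extended replication-dependent histone genes and of 38 listed DNA replication genes, in TNF, Fbxl2 siRNA, control and proliferation cells; points are libraries, bars means and whiskers 1 SD. Library B is lowest for the short-ended genes in proliferation cells (2.57 CPM) and highest there for the DNA replication genes (3790 CPM).

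The scarce genes that passed the filter are given in counts. Hist1h2bk, a short-ended H2B gene, had 0, 11 and 12 counts in TNF, 31, 12 and 28 in Fbxl2 siRNA, 2, 1 and 9 in control and 53, 35 and 64 in proliferation libraries. Every proliferation library held more of its reads than any other library. Hist1h2bj, another short-ended H2B gene, had 4, 0 and 0 counts in TNF, 13, 12 and 20 in Fbxl2 siRNA, 6, 11 and 5 in control and 21, 3 and 26 in proliferation libraries. TNF thus held fewer Hist1h2bj reads than any other group. The linker H1 genes Hist1h1d and Hist1h1e are extended in the annotation but were as scarce as the short-ended genes.

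Hist1h1d had 4, 3 and 7 counts in TNF, 23, 10 and 14 in Fbxl2 siRNA, 5, 2 and 4 in control and 49, 9 and 44 in proliferation libraries. Hist1h1e had 4, 6 and 8 counts in TNF, 20, 9 and 10 in Fbxl2 siRNA, 8, 3 and 4 in control and 38, 2 and 34 in proliferation libraries. Hist1h1b, a short-ended linker H1 gene, had 6, 8 and 5 counts in TNF, 13, 4 and 2 in Fbxl2 siRNA, 3, 1 and 2 in control and 31, 3 and 27 in proliferation libraries. In each of these 3 genes proliferation library B was far under its fellows, and for Hist1h1e it lay below the control libraries. Hist1h1e shares its strand with Hist1h2be, which is annotated over it. Among the members that were not tested, 6 had no count in the TNF libraries (Hist1h2ab, Hist1h2ah, Hist1h2ak, Hist1h3i, Hist2h3b and Hist3h2ba), 2 had none in control (Hist1h2bf and Hist2h3b) and 1 had none in proliferation (Hist2h2aa1); these were chosen after their values were seen. A count of 0 over a group allows up to 3 counts, or 0.0346 CPM in TNF, 0.0334 CPM in control and 0.0342 CPM in proliferation cells.

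**Figure D3:**
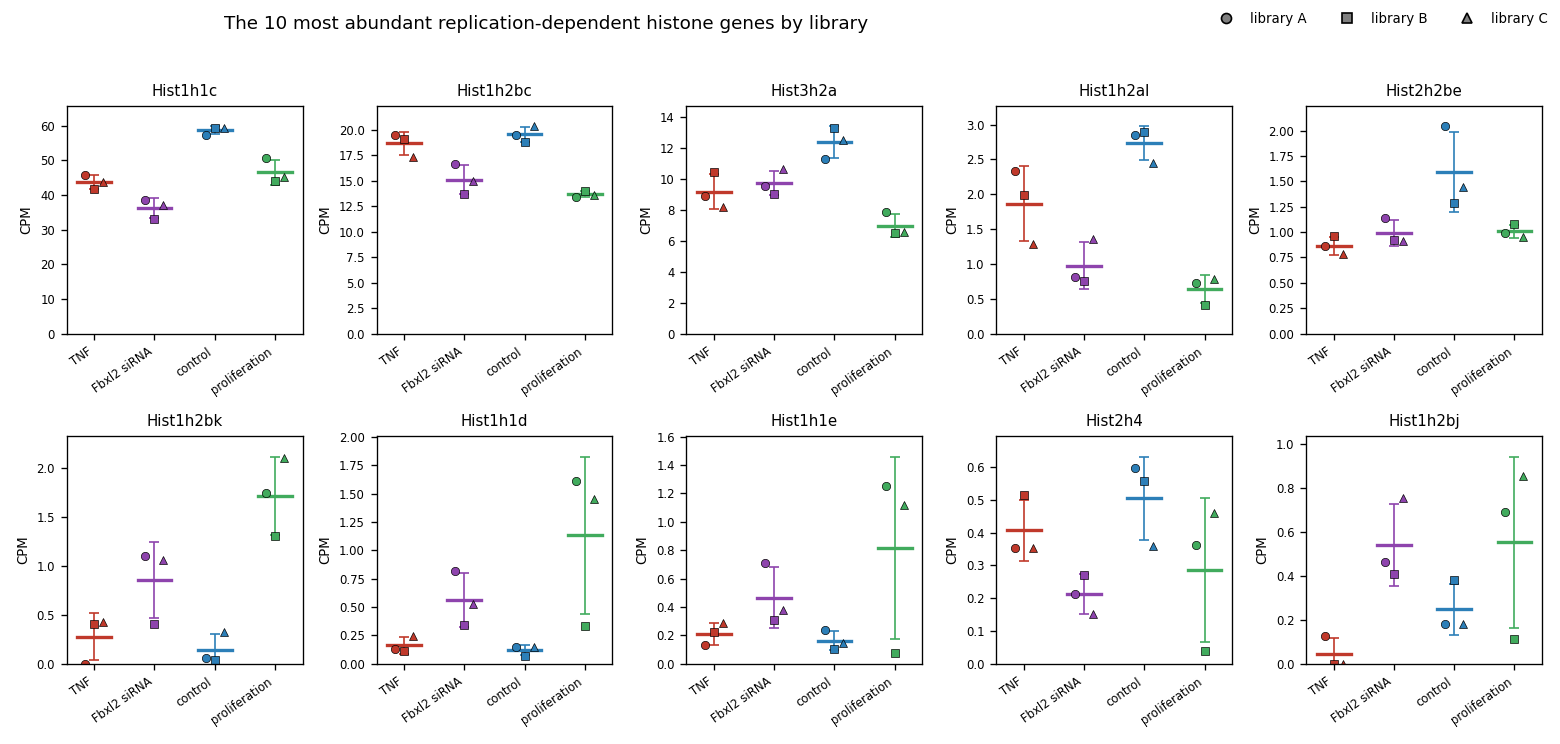
Levels in CPM (vertical axis, from 0) of the 10 replication-dependent histone genes with the highest mean over all libraries, by group and library; points are libraries, bars means and whiskers 1 SD. Hist1h1c, Hist3h2a, Hist1h2al and Hist2h2be were highest in control cells, while Hist1h2bk, Hist1h1d and Hist1h1e were highest in proliferation cells, with library B low.

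The comparison of control with proliferation cells asks what changed over 48 h of differentiation. Variant H2A.Z and H2A.X genes and both linker variants fell, while the extended genes Hist1h1c, Hist1h2bc, Hist3h2a and Hist2h2be rose. The scarce linker genes Hist1h1b, Hist1h1d and Hist1h1e fell, of which Hist1h1d and Hist1h1e are extended as well. Of the 21 members tested, 7 were called higher in control and 11 lower (edgeR adjusted p under 0.05), beside 38.4% of all tested genes higher and 38.9% lower. Among the 9 variants, 2 rose and 7 fell; among the 12 replication-dependent genes, 5 rose, 4 fell and 3 were not called. The median log2 fold change of the 21 was -0.48, against 0 over all genes tested.

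H2afz fell by 1.95 ± 0.07 on the log2 scale (SE; edgeR adjusted p = 1.19e-15), H2afx by 1.28 ± 0.06 (2.31e-14) and H1f0 by 1.12 ± 0.06 (4.01e-13). The fall of H1fx was 0.79 ± 0.09 (edgeR adjusted p = 1.78e-07), that of H2afy 0.57 ± 0.05 (8.8e-10) and that of H2afv 0.38 ± 0.05 (1.29e-07). H2afy2 fell by 0.20 ± 0.07 (edgeR adjusted p = 0.0104), a call lost without proliferation library C (-0.17, adjusted p = 0.0508) and without library B of both proliferation and Fbxl2 siRNA (-0.15, adjusted p = 0.0725). The variants that rose were H2afj (log2 fold change 0.34 ± 0.08, edgeR adjusted p = 0.00105) and H3f3a (0.14 ± 0.05, 0.00727), and the call of H3f3a was lost with libraries B and C alone (0.11, adjusted p = 0.0589). The titles number libraries A from S1 to S4 and libraries B and C from S10 to S17, which is why the fit was repeated on B and C alone.

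The rises among replication-dependent genes were those of Hist1h2al (log2 fold change 2.07 ± 0.26, edgeR adjusted p = 2.97e-07), Hist3h2a (0.82 ± 0.10, 2.84e-07), Hist2h2be (0.67 ± 0.21, 0.00582), Hist1h2bc (0.52 ± 0.07, 2.02e-06) and Hist1h1c (0.33 ± 0.06, 4.94e-05). For Hist2h2be the call ended without control library A (0.44, adjusted p = 0.0804) and with libraries B and C alone (0.43, adjusted p = 0.139). The falls were those of Hist1h2bk (-3.65 ± 0.67, edgeR adjusted p = 0.000285), Hist1h1b (-3.29 ± 0.78, 0.00118), Hist1h1d (-3.19 ± 0.57, 7.87e-05) and Hist1h1e (-2.30 ± 0.72, 0.0102). Leaving out control library C moved Hist1h2bk to -5.04, and Hist1h1e lost its call with libraries B and C alone (-2.29, adjusted p = 0.0511). Hist1h1b, Hist1h1d and Hist1h1e fell below the low-count filter in the fit of these 6 libraries alone, as did Hist1h1b with libraries B and C alone, so those fits gave no value for them. In the main fit these genes and Hist1h2bk passed the filter mainly through proliferation and Fbxl2 siRNA libraries, where their highest counts lay. Their calls as lower in control cells are therefore partly selected by the filter. Hist1h2bj had a log2 fold change of -1.20 ± 0.59 (edgeR adjusted p = 0.0735) and was called lower in 3 of 15 alternatives; it ran from -1.64 without proliferation library B (adjusted p = 0.00226) to -0.75 without proliferation library C (0.316). Of the other replication-dependent genes tested, Hist2h4 and Hist1h2bq had adjusted p-values of 0.108 and 0.691. When the filter was relaxed so that all 39 members were tested, 20 or 21 members fell in place of 11. The 18 genes added this way held 66 reads in control and 302 in proliferation cells. Proliferation had the highest mean for 16 of these 18. Their entry by a total of counts therefore partly selects genes that are lower in control cells. Over the whole table, 10086 or 10229 genes were then called in either direction, against 9836 in the main fit. The share of all genes called lower under the relaxed filters was not computed.

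All 38 listed genes of S phase and DNA replication were called lower in control cells, beside 38.9% of all tested genes, with a median log2 fold change of -1.52. Slbp, the stem-loop binding protein, had 43.2, 43.4 and 43.9 CPM in control libraries against 78.2, 106 and 92 CPM in proliferation libraries (log2 fold change -1.08 ± 0.10, edgeR adjusted p = 1.24e-07). Mki67, a marker of cycling cells, fell by 1.54 ± 0.06 on the log2 scale (edgeR adjusted p = 4.47e-15). Of 26 tested genes of histone mRNA expression and 3′ processing, 6 rose and 14 fell, with Npat, the S-phase coactivator of histone gene transcription, at a log2 fold change of 0 ± 0.05 (edgeR adjusted p = 0.975). Of 38 listed genes of histone chaperones and deposition, 5 rose and 28 fell. Over all tested genes, 38.4% rose and 38.9% fell. Examples of the falls, not fixed in advance, include Cenpa, the centromeric H3 (-2.10 ± 0.06, edgeR adjusted p = 7.45e-17). Nasp, a chaperone of H3 and H4 (-1.60 ± 0.07, edgeR adjusted p = 9.87e-15), and Anp32e, which takes H2A.Z off chromatin (-1.11 ± 0.06, 3.13e-13), are others. The 5 genes of that list called higher were Ubn1 (log2 fold change 0.59), Ubn2 (0.37), Srcap (0.34), Ipo4 (0.32) and Atrx (0.21).

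TNF with control cells compares differentiation with and without the cytokine. H2afz, H2afx, H2afy and H1fx were higher with TNF, and Hist1h1c, Hist3h2a, Hist2h2be, the pseudogene Hist1h2al and the variant H3f3a were lower. In all, 4 members were called higher and 5 lower (edgeR adjusted p under 0.05), beside 31.0% of all tested genes higher and 23.6% lower; the members' shares are close to or under those over all genes. No replication-dependent gene was called higher and 4 were called lower, while 4 variants rose and 1 fell. With upper quartile scaling the split was 3 higher and 6 lower. The median log2 fold change of the 21 was 0.10, against 0.03 over all genes tested.

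H2afz rose by 0.68 ± 0.07 on the log2 scale (SE; edgeR adjusted p = 2.69e-08) and H2afx by 0.65 ± 0.06 (6.38e-09). Smaller rises were found for H1fx (0.31 ± 0.10, edgeR adjusted p = 0.0125) and H2afy (0.17 ± 0.05, 0.00662). The call of H1fx ended without TNF library C (0.27, adjusted p = 0.058) and that of H2afy with upper quartile scaling (0.12, adjusted p = 0.0576). H3f3a fell by 0.13 ± 0.05 (edgeR adjusted p = 0.0245), a call lost without control library A or C, without TNF library A or C, and with libraries B and C alone (adjusted p between 0.052 and 0.0831). H1f0, which fell on differentiation, had a log2 fold change of -0.09 ± 0.06 (edgeR adjusted p = 0.197), although its libraries did not overlap, and was called lower with upper quartile scaling (-0.14, adjusted p = 0.046) and in the fit of the 6 libraries alone (-0.12, adjusted p = 0.0049). H2afv (-0.01 ± 0.05), H2afj (0.10 ± 0.08) and H2afy2 (0.12 ± 0.07) were not called.

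Among the replication-dependent genes, Hist2h2be fell by 0.89 ± 0.21 on the log2 scale (SE; edgeR adjusted p = 0.00137), Hist3h2a by 0.43 ± 0.10 (0.000804) and Hist1h1c by 0.42 ± 0.06 (5.56e-06). Hist1h2al fell by 0.54 ± 0.21 (edgeR adjusted p = 0.0354), which was lost in DESeq2 and without control library A or B or TNF library B or C (adjusted p between 0.0562 and 0.213). Leaving out control library A or TNF library C left 3 members called lower in place of 5. The scarce genes had wide intervals: Hist1h1d ran from -1.45 to 2.23 (95% interval of the log2 fold change) and Hist1h2bk from -1.18 to 3.12. Hist1h2bj, with 4 counts in TNF against 22 in control cells, had a log2 fold change of -2.31 ± 1.01 (edgeR adjusted p = 0.0646), and was called lower in 5 of 14 alternatives (adjusted p between 0.0117 and 0.201 over the 14).

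Of the 38 DNA replication genes, 37 rose with TNF and none fell, with a median log2 fold change of 0.67. Slbp had 68.3, 59.9 and 59.6 CPM in TNF against 43.2, 43.4 and 43.9 CPM in control libraries (0.53 ± 0.10, edgeR adjusted p = 0.000365), and Mki67 rose by 0.89 ± 0.06 (9.39e-11). In the histone mRNA list 14 of 26 rose and 1 fell, among them Npat (0.24 ± 0.05, edgeR adjusted p = 0.000843). Of the 38 genes of the chaperone and deposition list 23 rose and 1 fell, where 31.0% of all tested genes rose and 23.6% fell. The sums over short-ended histone genes overlapped between TNF and control libraries, at 0.927 to 1.52 CPM against 0.569 to 1.53 CPM. These sums held only 111 reads in TNF and 99 in control cells, and their link to the DNA replication genes was not tested.

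Fbxl2 siRNA with control cells, which shares the control libraries with the comparison above, compares cells with and without silencing at 48 h. Whether control cells were given a non-targeting siRNA is not in the labels, so silencing and transfection cannot be told apart. H2A.Z, H2A.X and both linker variants were higher, and the extended genes Hist1h1c, Hist1h2bc, Hist3h2a, Hist2h2be and Hist2h4 were lower. The scarce Hist1h2bk and Hist1h1d were higher, and Hist1h1d is extended as well. Here 8 members were called higher and 9 lower (edgeR adjusted p under 0.05), beside 34.1% of all tested genes higher and 29.8% lower. Among the variants 6 rose and 3 fell, and among the replication-dependent genes 2 rose and 6 fell. The median log2 fold change of the 21 was 0.23, against 0.03 over all genes tested.

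H2afz rose by 0.83 ± 0.07 on the log2 scale (SE; edgeR adjusted p = 1.6e-09), H2afx by 0.82 ± 0.06 (1.38e-10) and H1f0 by 0.63 ± 0.06 (8.9e-09). H1fx rose by 0.44 ± 0.10 (edgeR adjusted p = 0.000626), H2afy by 0.23 ± 0.05 (0.000349) and H2afv by 0.14 ± 0.05 (0.0124). For H2afv the call ended without Fbxl2 siRNA library C, with no filter on low counts and in DESeq2 (0.11 each, adjusted p between 0.0599 and 0.0833). The variants that fell were H3f3a (-0.31 ± 0.05, edgeR adjusted p = 6.47e-06), H2afj (-0.28 ± 0.08, 0.00607) and H2afy2 (-0.16 ± 0.07, 0.047). H2afy2 lost its call in 8 of 15 alternatives, among them each control library and Fbxl2 siRNA library A or B left out in turn.

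The extended genes Hist1h1c (-0.69 ± 0.06, edgeR adjusted p = 5.65e-09), Hist2h2be (-0.70 ± 0.21, 0.00647), Hist1h2bc (-0.37 ± 0.07, 0.000158) and Hist3h2a (-0.35 ± 0.10, 0.00387) fell, as did the pseudogene Hist1h2al (-1.49 ± 0.24, 1.62e-05). Hist2h2be lost its call without control library A (-0.46, adjusted p = 0.0823) and with libraries B and C alone (-0.57, adjusted p = 0.0661). Hist2h4 fell by 1.24 ± 0.47 (edgeR adjusted p = 0.0275), and this call was lost in DESeq2, with libraries B and C alone and without control library A or B or Fbxl2 siRNA library A or C (adjusted p between 0.0625 and 0.159). Hist1h2bk rose by 2.63 ± 0.77 (edgeR adjusted p = 0.0102), or 4.01 without control library C, and Hist1h1d by 2.16 ± 0.67 (0.00963), lost with libraries B and C alone (1.98, adjusted p = 0.0627) and not tested in the fit of these 6 libraries, where it fell below the low-count filter. Hist1h2bk and Hist1h1d passed the filter mainly through proliferation and Fbxl2 siRNA libraries, so their calls as higher are partly selected by it. Hist1h1e (1.46 ± 0.81, edgeR adjusted p = 0.135), Hist1h1b (1.70 ± 1.00, 0.15) and Hist1h2bj (1.12 ± 0.60, 0.113) were not called. Without Fbxl2 siRNA library A, Hist1h1e was at 1.01 (adjusted p = 0.372) and Hist1h1b at 0.65 (0.642); with the replicate block, Hist1h1e was called higher (adjusted p = 0.032).

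Of the DNA replication genes, 35 of 38 rose and none fell, with a median of 0.72 on the log2 scale. Slbp had 67.9, 78.3 and 72.4 CPM in Fbxl2 siRNA against 43.2, 43.4 and 43.9 CPM in control libraries (0.75 ± 0.10, edgeR adjusted p = 1.23e-05), and Mki67 rose by 0.93 ± 0.06 (5.48e-11). The histone mRNA list had 10 of 26 genes higher and 4 lower, with Npat at -0.04 ± 0.05 (edgeR adjusted p = 0.58). Of the 38 genes of the chaperone and deposition list 20 rose and 5 fell, and Cenpa rose by 1.62 ± 0.06 (edgeR adjusted p = 3.15e-14). Over all tested genes, 34.1% rose and 29.8% fell, so the rises in the histone mRNA list were near the share over all genes.

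**Figure D4:**
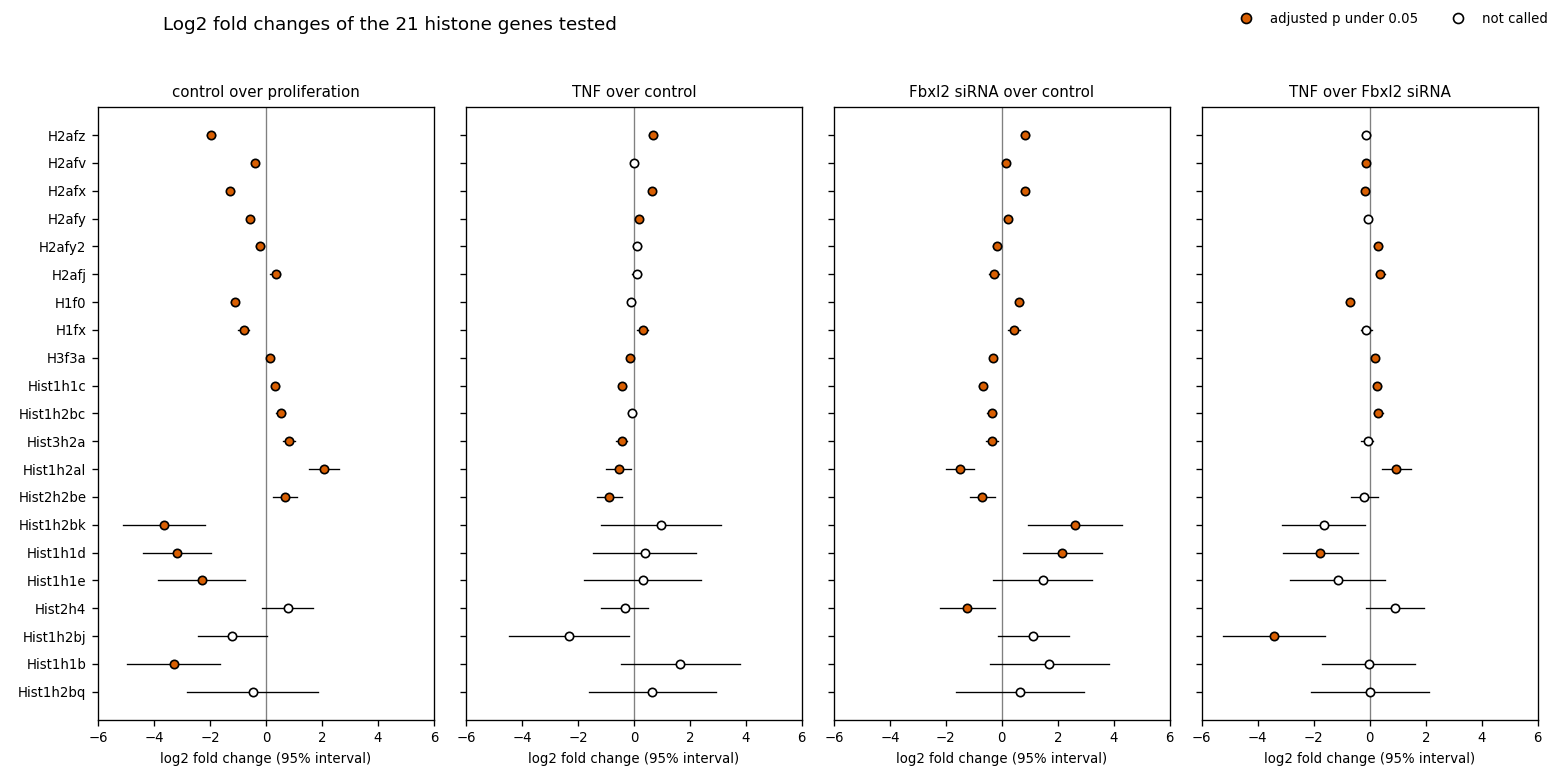
Log2 fold change (horizontal axis) with its 95% interval for the 21 histone genes tested, in the 4 comparisons; filled points passed an adjusted p of 0.05 in edgeR. H2afz and H2afx lie left of 0 in control over proliferation and right of 0 in TNF over control and Fbxl2 siRNA over control; Hist1h1c, Hist3h2a and Hist2h2be lie on the opposite sides.

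TNF and Fbxl2 siRNA cells were set against each other directly. H1.0 and the scarce Hist1h1d and Hist1h2bj were lower with TNF, while Hist1h1c, Hist1h2bc, H2afj, H2afy2 and H3f3a were higher. Of the 21 members, 6 were called higher in TNF and 5 lower (edgeR adjusted p under 0.05), beside 29.9% of all tested genes higher and 30.6% lower. Among the variants 3 rose and 3 fell, and among the replication-dependent genes 3 rose and 2 fell. With upper quartile scaling 6 members were higher and 8 lower. The median log2 fold change of the 21 was -0.08, against -0.01 over all genes tested.

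H1f0 had the largest difference of the variants, at a log2 fold change of -0.72 ± 0.06 (SE; edgeR adjusted p = 1.08e-09). H2afx was lower by less (-0.18 ± 0.06, edgeR adjusted p = 0.00958), as was H2afv (-0.15 ± 0.05, 0.00736), whose call ended without Fbxl2 siRNA library C (-0.12, adjusted p = 0.0557). For H2afz the difference was -0.14 ± 0.07 (95% interval -0.28 to -0.01, edgeR adjusted p = 0.0652), and it was called lower in 6 of 15 alternatives. H2afy (95% interval -0.17 to 0.04) and H1fx (-0.33 to 0.07) were not called. The variants higher in TNF were H2afj (0.38 ± 0.08, edgeR adjusted p = 0.000488), H2afy2 (0.28 ± 0.07, 0.00127) and H3f3a (0.18 ± 0.05, 0.00187).

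Hist1h2al (0.95 ± 0.26, edgeR adjusted p = 0.00306), Hist1h2bc (0.30 ± 0.07, 0.00136) and Hist1h1c (0.27 ± 0.06, 0.000958) were higher in TNF; Hist1h2al lost its call with libraries B and C alone (0.64, adjusted p = 0.0989). Hist1h2bj was lower in TNF (-3.43 ± 0.86, edgeR adjusted p = 0.00258), with all 4 of its TNF counts in library A; without that library its TNF counts were all 0 (adjusted p = 0.00152). Hist1h1d was lower (-1.77 ± 0.63, edgeR adjusted p = 0.0238), which was lost without Fbxl2 siRNA library A, without TNF library A or B and with libraries B and C alone (adjusted p between 0.0793 and 0.191), and it was not tested in the fit of these 6 libraries, where it fell below the low-count filter. Both Hist1h2bj and Hist1h1d passed the low-count filter mainly through proliferation and Fbxl2 siRNA libraries. Their calls as lower in TNF are therefore partly selected by it. Hist1h2bk missed the threshold (-1.65 ± 0.67, edgeR adjusted p = 0.0506) and passed it in 5 of 15 alternatives. Its log2 fold change was -1.02 without TNF library A (adjusted p = 0.0928) and -2.14 without TNF library C (0.0483), and with the replicate block it passed (adjusted p = 0.0258). Hist3h2a (95% interval -0.30 to 0.13) and Hist2h2be (-0.68 to 0.30) were not called.

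Of the 38 DNA replication genes, 6 were higher in TNF and 12 lower, the median log2 fold change was -0.04, and the list summed to 2110 ± 37.8 CPM in TNF and 2150 ± 32.4 CPM in Fbxl2 siRNA libraries (SD, n = 3 each). Mki67 had a log2 fold change of -0.03 ± 0.06 (edgeR adjusted p = 0.654) and Slbp of -0.22 ± 0.09 (0.0597). Of the 26 genes of the histone mRNA list 8 were higher and 3 lower. In the chaperone and deposition list of 38 genes 11 were higher and 8 lower, with Cenpa lower in TNF (-0.74 ± 0.06, edgeR adjusted p = 1.15e-09). Over all tested genes, 29.9% were higher and 30.6% lower. The numbers higher in both lists were thus near the share over all genes, and the numbers lower were under it.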

How the data were processed

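RNA from 12 libraries had been made with an Illumina mRNA kit, per the labels' protocols. The authors deposited whole-number read counts per gene; CASAVA, DESeq2 and the mm10 build were used, per the submitters' processing notes, and the sources used here give no aligner, counter or strand setting. Reads of near-identical histone genes can therefore be shared between copies.

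The deposited counts entered edgeR 4.0.16 with limma 3.58.1, under R 4.3.3 (filterByExpr, TMM, a robust quasi-likelihood fit of 4 group means with 8 residual degrees of freedom over 12736 genes, Benjamini-Hochberg over all of them). Calls needed an adjusted p below 0.05. Each SE is approximate, the size of the log2 fold change over the root of the F statistic. On data simulated for TNF over control with 12736 genes, 93 of 100 genes changed by 1 on the log2 scale and 99 of 100 changed by 2 were called. Among the unchanged genes 10 were called. The changed genes were drawn at random from all tested genes, so these shares do not describe the scarce members. Replicates of a group were distinct (chi-square per degree of freedom 1.62 to 22.2). Within the 4 comparisons, deviations of same-letter libraries from their group means correlated at -0.091 to 0.183, and the main fit did not pair libraries by letter. Proliferation with Fbxl2 siRNA and proliferation with TNF were not checked in this way.

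Values are given for every tested variant, the 10 most abundant replication-dependent genes and, in each comparison, the 3 called members with the largest rise and fall; Slbp and Mki67 are named whatever their result. Other genes named from the lists were not fixed in advance. Members and lists were chosen with earlier results of these data known. The alternatives were RLE and upper quartile scaling, 2 other filters on low counts, DESeq2 1.42.0, fits of the 6 libraries compared, libraries B and C alone, the letter as a block, each library left out in turn and, added after seeing the data, both low B libraries left out. Stem-loops came from GENCODE M21 transcripts and promoters from RefSeq (GRCm38.p6). The 3 deposited comparison tables were not used.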

Additional observations from a re-analysis of the deposited data

How the results depend on the processing

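Of 8 counts of members called (higher and lower in 4 comparisons), 5 stayed within 1.5 times their value in every alternative run. The number lower in control than in proliferation was 11, against 20 with no filter on low counts, 21 with at least 10 counts in all and 19 in DESeq2, where the 39 members rather than 21 could be tested. Over the whole table, those fits called 10086, 10229 and 9595 genes in either direction, against 9836 in the main fit. The share of all genes in each direction was not computed for the alternatives. Members added in those fits entered by a total of counts and held more reads in proliferation than in any other group. The larger numbers lower in control are therefore partly selected. The number lower in TNF than in control was 5, and ran from 3 (without control library A, and without TNF library C) to 5 when each library was left out in turn. The number lower in TNF than in Fbxl2 siRNA was 5, against 8 with upper quartile scaling, 8 with no filter and 8 with at least 10 counts in all. With the letter as a replicate block, 18, 10, 18 and 13 members were called in control over proliferation, TNF over control, Fbxl2 siRNA over control and TNF over Fbxl2 siRNA, against 18, 9, 17 and 11 without it. Over all genes, 9897, 7070, 8239 and 7833 were called with the block, against 9836, 6960, 8142 and 7705 without it. Single log2 fold changes turned their sign only where they were not called: H2afv in TNF over control was 0 without TNF library A, Hist1h1d in TNF over control was -0.03 without TNF library C (range over libraries left out -0.03 to 0.59), and Hist1h1b in TNF over Fbxl2 siRNA was 1 without Fbxl2 siRNA library A, 0.05 without TNF library A and 0.08 without TNF library C (range -0.43 to 1). The cause was not tested. Over all named genes and alternatives, 1099 values kept direction and side of the threshold, 44 lost the call, 33 gained it and 5 turned; a further 19 of the 1200 had no value because the gene fell below the low-count filter in that fit.

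Members with few counts limit this account: a single library decides several of their calls, 18 members could not be tested, and whether the kit kept RNA without a poly(A) tail is not stated in the labels. Hist1h1b, Hist1h1d, Hist1h1e, Hist1h2bj and Hist1h2bk passed the low-count filter mainly through proliferation and Fbxl2 siRNA libraries. Calls of these genes that set those groups above another are partly selected by the filter.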
